A study of Mus musculus with 8 samples.

Results

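Osr1, Osr2, Wt1, Sall1, Sall3 and Sall4 encode zinc finger transcription factors that are studied in kidney development. They were chosen by name, and their probes were found through the transcript accession that the scanner output gives for each spot. These 6 genes, of 20887 named on the array, were covered by 8 probes. Sall4 had 3 probes and each of the other genes had 1. Probes for 5 of the 6 genes could be tested. Sall3 could not, because its only probe was not well above background in the red channel, which carries the sample, on any array.

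The samples were pairs of whole kidneys from C57BL/6 mouse embryos at embryonic day 16.5, when nephrons are still forming. The 4 wildtype pairs are labelled WT1 to WT4 and carry the genotype "control". The 4 knockout pairs, KO1 to KO4, carry the genotype "DOT1-null", and Dot1, taken here as the histone H3 lysine 79 methyltransferase gene Dot1l, was removed conditionally from Six2-positive nephron progenitor cells. The allele and the line that drives the deletion are not given in the sources used here, and the labels name no deletion in other cells of the kidney. Each array carried Cy5-labelled (red) RNA of 1 sample and, as a shared reference, Cy3-labelled (green) RNA of WT1, with no dye swap. Values below are log2 ratios of red over green unless given as signals. On the WT1 array both colours came from the same kidneys. WT1 in capitals is always this sample or its array, and Wt1 is the gene.

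The Odd-skipped related factors Osr1 and Osr2 are a pair of closely related proteins. Osr1 acts early, in the intermediate mesoderm from which the kidney arises, and is later needed to keep nephron progenitors undifferentiated. Osr2 is best known from the palate and the limb joints and is also expressed in the embryonic kidney. Wt1 is required for the kidney to form, stays on in progenitors and early nephrons, and becomes most abundant in podocytes, the filtering cells of the glomerulus. The Spalt-like factors Sall1, Sall3 and Sall4 repress transcription through the NuRD complex. Sall1 is needed in nephron progenitors, while Sall4 is best known from pluripotent and germ cells. Sequences of these genes other than a promoter entry for Sall1, on which no measurement bears, were not used here, so none is shown.

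Several features of the arrays bear on the values. The background was raised on a pair of them: the median red negative control was 1361 scanner units on WT1, 478.25 on KO1 and 58 to 61 on the remaining 6. Green signals, which came from one RNA throughout, matched those 6 arrays less well on WT1 (r = 0.562 across probes) and KO1 (0.904) than the 6 matched each other (a median r of 0.996 or 0.997 for each). All 8 arrays lay on 1 slide, with WT arrays in one row and KO arrays in the other, so row and group cannot be told apart. The Y-linked gene Ddx3y was at 2.31 or more on the 4 KO arrays and on WT2, and at 0.08 or less on the other 3 WT arrays, while both probes of the X-inactivation RNA Xist were at -1.48 or less on the former and at -0.40 or more on the latter. By these markers all KO embryos and WT2 were male, and WT1, WT3 and WT4 were female. Each Xist probe was well above background in red on only 2 arrays, fewer than the 4 asked of a tested probe. The Dot1l probe differed by 0.03 ± 0.08 (SE; limma adjusted p = 0.924). Where that probe lies relative to the deleted part is not known here, so it does not check the labels. The labels call the pairs biological replicates and do not say whether embryos shared a litter.

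The comparison asked which of these factors differ in kidneys whose progenitors lack Dot1l. Osr2 and Wt1 fell, none of the 5 tested genes rose, and Osr1, Sall1 and Sall4 did not pass the test. Osr2 was 1.81-fold lower in KO (-0.86 ± 0.12 on the log2 scale, SE; adjusted p = 0.00544 in limma), and Wt1 was 1.32-fold lower (-0.40 ± 0.09; adjusted p = 0.0354). Across all 13981 genes tested, 0.544% were called lower, 1.61% higher and 2.15% in either direction, and 1.53% of all kept probes were called when each probe was tested by itself. That is 76 genes lower and 225 higher, or 111 lower and 445 higher with the replicate number as a block, and 50 lower and 73 higher with the scanner software's own ratios. Leaving out 1 array gave between 83 and 345 called genes. The median difference was -0.09 over the 5 genes and 0.03 over all genes tested. The SE is the moderated standard error over 4 arrays per group, and the number of arrays limits the precision.

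**Figure D1:**
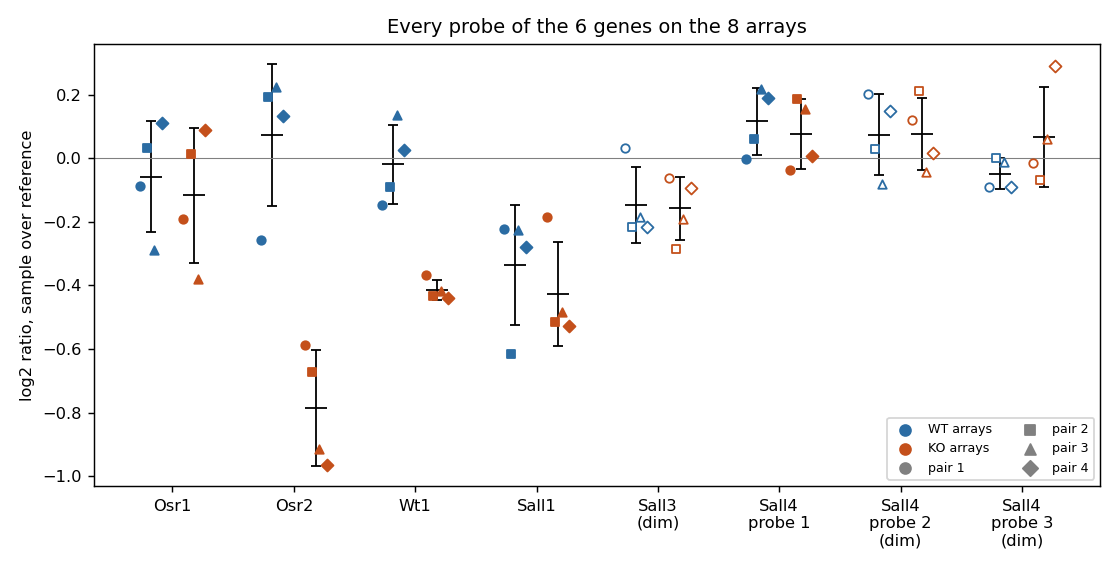
Log2 ratio of sample over reference (vertical axis) for every probe of the 6 genes, with WT arrays in blue and KO arrays in orange, marker shapes for the pair number, and the mean ± SD of 4 arrays in black. Open symbols mark 3 dim probes that did not enter the test; the groups separate for Osr2 and Wt1 and overlap for every other probe.

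Osr2 was the member that changed most. Its log2 ratios were -0.26, 0.19, 0.23 and 0.13 on WT1 to WT4 and -0.59, -0.67, -0.91 and -0.97 on KO1 to KO4. Every KO array thus lay below every WT array, and the highest value in KO and the lowest in WT were both from the arrays with a high background, KO1 and WT1. Both colours of WT1 held the same RNA, so its -0.26 is not a difference between RNAs. The group means were 0.07 ± 0.22 (SD, n = 4) in WT and -0.78 ± 0.18 in KO, and the 95% confidence interval of the difference from limma ran from -1.13 to -0.59. Groups did not overlap for 2 of the 5 members, both lower in KO, and for 9.28% of all genes tested, 2.46% lower and 6.82% higher. In an exact two-sided permutation test over 70 splits of the arrays p was 0.0286, the smallest value that 4 arrays against 4 allow. With labels exchanged only within the 4 same-numbered pairs, a test added after seeing the data, 16 arrangements are possible, so no exact p can go below 0.125, and Osr2, Wt1 and Osr1 all gave that value. Only 0.143% of the genes tested had a larger decrease.

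The scanner signals of Osr2 before any normalization were lower in KO on the 6 arrays with a low background. The red signal of the Osr2 spot was 890, 817.5 and 1125 units on WT2 to WT4 and 454, 265 and 399.5 units on KO2 to KO4. The green signal of the same spot, from the shared reference, was 370, 330.5 and 331 units on WT2 to WT4 and 284, 300 and 289 units on KO2 to KO4. The red values of the groups did not overlap on these 6 arrays, and the green values did not overlap either but were far closer together. The spot was well above background in both colours on all 8 arrays. On WT1 and KO1 it read 6433 and 1248 units in red, over negative controls of 1361 and 478.25 units, so that KO1 lay above WT2 to WT4 in raw signal. Separate raw signals are not particular to the called genes: those of Sall1, which was not called, were 742, 887 and 1248.5 units on WT2 to WT4 and 676, 451 and 738.5 units on KO2 to KO4.

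**Figure D2:**
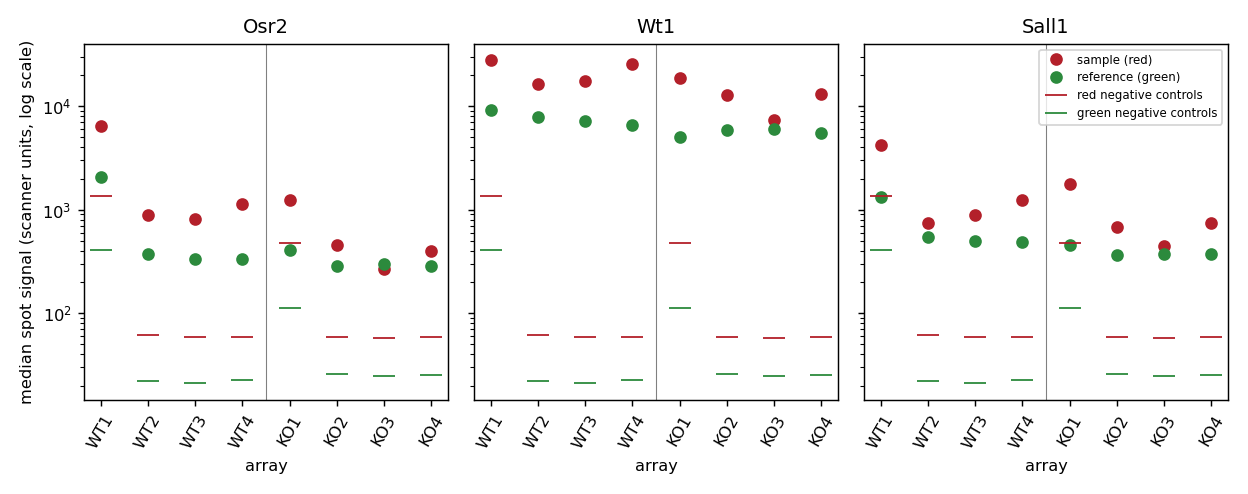
Median spot signal in scanner units (vertical axis, log scale) of the Osr2, Wt1 and Sall1 probes on each array, red for the sample and green for the WT1 reference, with dashes for the median negative control of the same colour. On WT2 to WT4 the red Osr2 signal is 817.5 to 1125 units and on KO2 to KO4 it is 265 to 454 units, while WT1 and KO1 stand apart through their raised negative controls.

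The decrease of Osr2 was seen within each column of the slide, where arrays of the same pair number stood. KO minus WT was -0.33 in the first column, which holds WT1 and KO1, and -0.86, -1.14 and -1.10 in the others. With both high-background arrays left out the difference was -1.03 ± 0.10 (adjusted p = 0.00317). It was -1.12 with the ratios that the scanner software itself computed (adjusted p = 0.00807). In each of the 8 fits without 1 array Osr2 was called, with adjusted p between 0.0038 and 0.0285. Against WT2, the male WT embryo, the KO mean was lower by a log2 difference of -0.98. With sex as a model term, which sets the KO arrays against that one WT array, the SE rose to 0.20 and the call was lost (adjusted p = 0.107). The part of embryo sex in this result was not tested beyond that term.

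Osr1, the paralogue with the established role in progenitors, gave overlapping groups. Its log2 ratios were -0.09, 0.03, -0.29 and 0.11 on WT1 to WT4 and -0.19, 0.02, -0.38 and 0.09 on KO1 to KO4. Arrays of the same pair number lay close together, the third pair lowest in both groups and the fourth highest. KO was the lower in all 4 same-numbered pairs, by log2 differences of -0.10, -0.02, -0.09 and -0.02. The difference was -0.06 ± 0.12 (adjusted p = 0.887; exact permutation p = 0.686 over 70 splits), with a 95% interval from -0.32 to 0.20. Red signals were 412 to 575 units on WT2 to WT4 and 260 to 509.5 units on KO2 to KO4. The probe was well above background on all 8 arrays. The interval allows a decrease of up to 0.32 on the log2 scale, which is smaller than the lowest size in the interval for Osr2.

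The unequal behaviour of the paralogues was tested directly on their ratio within each array. The log2 ratio of Osr1 over Osr2 was -0.51 to 0.17 in WT and 0.40 to 1.06 in KO, a shift of 0.80 (exact two-sided permutation p = 0.0286, the smallest possible; 10 pairs of genes compared, unadjusted). The shift was 0.99 without WT1 and KO1. The groups did not overlap. By the same test Osr2 fell further than Wt1 by 0.46, than Sall1 by 0.77 and than Sall4 by 0.82, each at that smallest p, which would not pass an adjustment over 10 pairs. Within same-numbered pairs the exact p of each of these 4 contrasts was 0.125, again the smallest possible.

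Wt1 had bright signals on every array and a smaller change. Its log2 ratios were -0.15, -0.09, 0.14 and 0.03 on WT1 to WT4 and -0.37, -0.43, -0.42 and -0.44 on KO1 to KO4. The -0.15 on WT1 came from the same RNA in both colours. All KO arrays lay below all WT arrays, and the KO values were closely grouped, with an SD of 0.03 against 0.13 in WT (n = 4 each). The red signal was 16546 to 25462 units on WT2 to WT4 and 7385 to 13083.5 units on KO2 to KO4. In green the spot read 6523 to 7943 units on WT2 to WT4 and 5501 to 5968.5 units on KO2 to KO4. The 95% interval of the difference ran from -0.58 to -0.21, and the exact permutation p was 0.0286 over 70 splits.

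The size of the Wt1 difference was steadier than its call. The differences within slide columns were -0.22, -0.34, -0.55 and -0.47. Without WT1 and KO1 together the difference was -0.45 (adjusted p = 0.0441). Leaving out any single array kept it between -0.44 and -0.34. The call remained without WT1 (adjusted p = 0.0357), and was lost without WT2 (0.0645), WT3 (0.0746), WT4 (0.102), KO1 (0.0503), KO2 (0.0998), KO3 (0.0708) or KO4 (0.132). It was also lost with the scanner software's ratios (-0.37, adjusted p = 0.103) and with sex as a term (-0.32, adjusted p = 0.394).

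Sall1, which represses through NuRD and is needed to maintain the progenitor pool, did not pass. Its log2 ratios were -0.22, -0.61, -0.22 and -0.28 on WT1 to WT4 and -0.18, -0.52, -0.48 and -0.53 on KO1 to KO4. The groups overlapped because of 1 array in each. WT2 was the lowest of all 8 arrays and KO1 the highest. The difference was -0.09 ± 0.11 (adjusted p = 0.783; exact permutation p = 0.486), with a 95% interval from -0.34 to 0.15. It was -0.19 without WT2 (adjusted p = 0.519) and, with sex as a term, 0.19 (adjusted p = 0.67). All 8 ratios of this probe were below 0, including that of WT1, where both colours held the same RNA.

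Sall4 and Sall3 were dim. The brightest Sall4 probe was called well above background in red on all 8 arrays, with 97 to 112.5 units on WT2 to WT4 and 92 to 118 units on KO2 to KO4, over negative controls of 58 to 61 units. Its log2 ratios were 0.00, 0.06, 0.22 and 0.19 on WT1 to WT4 and -0.04, 0.19, 0.16 and 0.01 on KO1 to KO4. It gave -0.04 ± 0.09 (adjusted p = 0.907; exact permutation p = 0.571; 95% interval from -0.24 to 0.16), with overlapping groups. The narrowness of this interval depends on the processing of a dim signal. With the scanner software's ratios the probe ran from 0.14 to 0.68 in WT and from -0.11 to 0.88 in KO. The difference was then -0.01 ± 0.24 (SE). The other 2 Sall4 probes were well above background in red only on WT1 and KO1 in one case and only on KO1 in the other, and read 52 to 68 units on the 6 arrays with a low background. Their differences were 0.00 and 0.11, and they did not enter the test. The Sall3 probe read 65.5 to 78 units on WT2 to WT4 and 59 to 64 units on KO2 to KO4 in red and was not well above background in that colour on any array. In green, from the WT1 reference, it was well above background on WT2 and KO2 only. Neither group was above background in the sample channel, so no fold is given for Sall3.

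**Figure D3:**
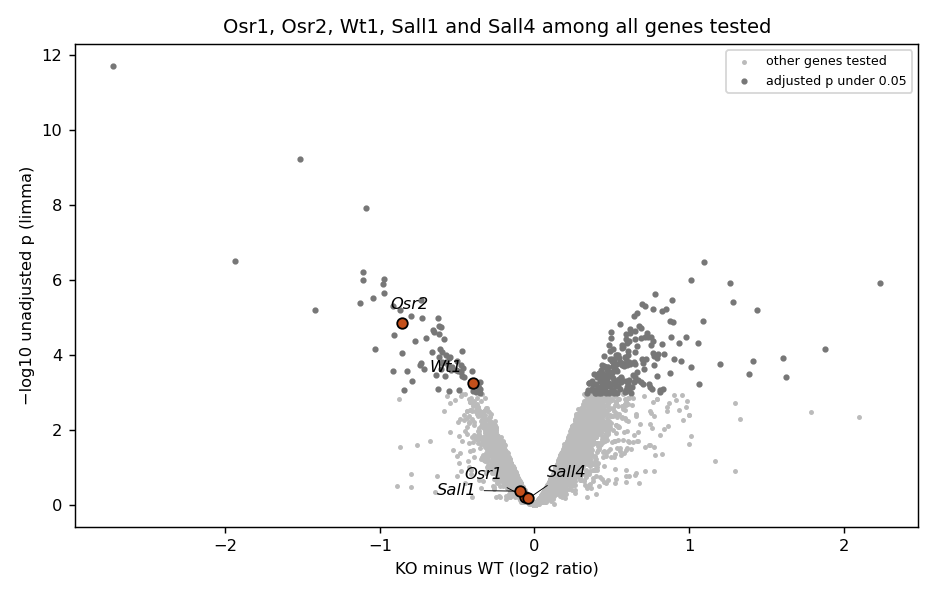
Difference KO minus WT in log2 ratio (horizontal axis) against the −log10 of the unadjusted limma p (vertical axis) for the 13981 genes tested, with the 5 tested members in orange and genes called at an adjusted p under 0.05 in dark grey. Osr2 at -0.86 and Wt1 at -0.40 lie among the called genes on the left, while Osr1, Sall1 and Sall4 lie near 0.

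Nephron progenitor genes were examined as a list of 23 cap mesenchyme regulators and markers, of which 22 were measured. Like the members and the other lists, it was chosen with earlier results of these data known. Its count and median are therefore no independent test, and how far the choice shaped them was not tested. In this list 10 genes fell, none rose and 12 did not pass, with a median of -0.29. Cited1, a coregulator of the earliest progenitors, fell by 2.72 ± 0.10, the adaptor gene Traf1 by 1.52 ± 0.09, while the homeobox genes Meox2 and Uncx were at -1.93 ± 0.20 and -1.11 ± 0.12 (SE; adjusted p of the 4 from 2.8e-08 to 0.00146 in limma). Six2, which defines the deleted lineage, was at -0.21 ± 0.12 (adjusted p = 0.439), and Kif26b, a Sall1 target in this tissue, at -0.20 (adjusted p = 0.311). Between 7 and 9 of the list fell without any 1 array, and 4 fell with sex as a term. The mean log2 ratio of this list was -0.12 to 0.15 on the WT arrays and -0.56 to -0.45 on the KO arrays. Its summed normalized red signal was 38050 on WT1, 67510 to 74130 on WT2 to WT4 and 43370 to 48010 in KO. In whole kidneys, fewer cells of a type and less RNA per cell cannot be told apart, for this list and for Osr2 and Wt1 alike.

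Of 15 genes of the pretubular aggregate and renal vesicle, the first nephron stages, 6 fell and none rose, with a median of -0.34. The genes that fell included the signal Fgf8 (-0.73), the Notch target Hes5 (-1.42), the Notch ligand gene Dll1 (-0.60) and Bmp2 (-0.65). The other 9 did not pass. Of these, Dkk1 (-0.40, adjusted p = 0.115 in limma) and Pou3f3 (-0.34, adjusted p = 0.0904) lay furthest below 0. For both, every KO array lay below every WT array, as for 2.46% of all genes tested. Cdh6 was at -0.17, Ccnd1 at -0.14, Jag1 at -0.08, Wnt4 at -0.06, Papss2 at -0.03 and Pax8 at -0.002. Of the 15 differences 14 were below 0 and 1 above. Sox9 was at 0.24 with groups that did not overlap, but was not called (adjusted p = 0.181 in limma). A second Fgf8 probe gave -0.48. Without KO4 only 4 of the list were called, and with sex as a term only 1. Their summed red signal was 22980 on WT1, 40460 to 43580 on WT2 to WT4 and 29400 to 34050 in KO. The part of these cell groups in the decreases of Osr2 and Wt1 was not tested.

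Genes tied to Wt1 in 3 ways were then followed. Of 14 genes reported as bound or regulated by Wt1 in progenitors, 12 were measured, and only Itga8, an integrin subunit by which the mesenchyme answers the ureteric bud and which the cap mesenchyme list also holds, fell (-0.40 ± 0.09, adjusted p = 0.0462). Of the 12 differences 4 were above 0 and 8 below. In limma 5 of the 12 genes had an unadjusted p under 0.05, on both sides of 0. These were Itga8, Bmper (-0.48), Lsp1 (0.23), Plxdc2 (0.27) and Fgf20 (0.40). Over all 13981 genes tested, 2030 had an unadjusted p under 0.05 in limma. The median of the 12 was -0.08, and it was -0.19 without WT1, -0.03 without WT2, -0.02 without WT4 and -0.18 without WT1 and KO1. The Itga8 call was lost in each of the 8 fits without 1 array (adjusted p from 0.0526 to 0.172). Podocyte genes mark the cells with most Wt1. None of 20 measured passed in limma (6 at an unadjusted p under 0.05), the median was 0.07, and the lowest p values were those of Foxc1 (0.44 ± 0.12, adjusted p = 0.0746) and Robo2 (-0.29 ± 0.08, adjusted p = 0.105). Nphs1, which encodes the slit diaphragm protein nephrin, was at 0.02 and not called. The summed podocyte signal was 31320 on WT1, 38840 to 43240 on WT2 to WT4 and 40870 to 44300 in KO. Of 10 genes for Wt1-binding proteins none passed in limma, 0 of them also at an unadjusted p under 0.05, with a median of 0.12. That median was 0.01 without WT1, 0.06 without KO4, 0.05 without WT1 and KO1 and -0.03 with sex as a term. U2af2, a splicing factor, was at -0.23 (adjusted p = 0.405) and the coactivator gene Crebbp at 0.17 (adjusted p = 0.587).

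The corepressors of the other factors gave no calls either. Of 13 measured NuRD subunit genes, none passed and the median was 0.05, which turned to -0.05 without WT1 and -0.06 without WT1 and KO1 and was 0.01 to 0.08 without any other array. Rbbp7, a histone-binding subunit, was at 0.26 (adjusted p = 0.252; -0.14 at a second probe) and Mbd3 at -0.13 (adjusted p = 0.508). Of 6 genes of the Groucho/TLE family, to which Osr1 binds, none passed and the median was 0.09, or 0.17 without WT2 or KO1, 0.05 without KO2 and 0.15 without WT1 and KO1. Tle6 was at 0.24 (adjusted p = 0.234) and Tle3 at 0.16 (adjusted p = 0.434). In limma only Rbbp7 and Tle6 of both lists had an unadjusted p under 0.05, beside 2030 of all 13981 genes tested.

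Other zinc finger factors moved in both directions. Of 32 listed, 29 were measured, and 2 rose and 1 fell, with a median of 0.06 (0.00 without WT1, 0.09 without WT3, 0.10 without WT4, 0.02 without WT1 and KO1). Zeb2, a mesenchymal repressor, rose by 0.57 ± 0.10 (adjusted p = 0.0124, but -0.03 at a second probe), and Plagl1, an imprinted growth regulator, by 0.51 ± 0.10 (adjusted p = 0.0202, with 0.48, 0.10 and 0.04 at other probes). Egr1, an immediate early factor with fingers related to those of Wt1, fell by 0.49 ± 0.11 (adjusted p = 0.0462). With the replicate block 4 rose and 1 fell, and none was called without KO4, with the scanner software's ratios or with sex as a term. The Egr1 call remained only without WT2 among the fits that leave out 1 array. Sall2, the remaining Spalt-like gene, was at 0.06 ± 0.11 (adjusted p = 0.88).

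Markers of other cells were read beside these values. Of 12 stromal genes 5 rose and none fell, with a median of 0.47, among them the fibroblast receptor gene Pdgfra (0.73 ± 0.11), Lum (0.70 ± 0.13), Penk (0.55 ± 0.10) and Dcn (0.53 ± 0.09). With the replicate block 8 of them rose, 3 rose without WT1 and KO1 together or without WT4, and 2 without KO4. With the scanner software's ratios 1 rose, and with sex as a term none did. The summed stromal signal was 39280 on WT1, 55590 to 58740 on WT2 to WT4 and 68820 to 76550 in KO. Of 11 gonad and germ cell genes, tissues that also express Wt1 and Sall4, 4 were measured and none passed (0 also at an unadjusted p under 0.05 in limma), with Inha at -0.11 and Dnd1 at 0.08. Amh, Dmrt1, Gata4, Ddx4, Dppa3 and Dazl were well above background on at most 1 array and Pou5f1 on 3. The summed signal of the 4 measured genes was 4438 to 9109 in WT and 5355 to 11340 in KO. Of 6 adrenal cortex genes only Mc2r (-0.20) and Cyp21a1 (0.01) were measured, with neither called, and Cyp11a1, Cyp11b1 and Hsd3b1 were not well above background on any array. The summed signal of Mc2r and Cyp21a1 was 225.3 to 405 in WT and 191.9 to 385.5 in KO.

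**Figure D4:**
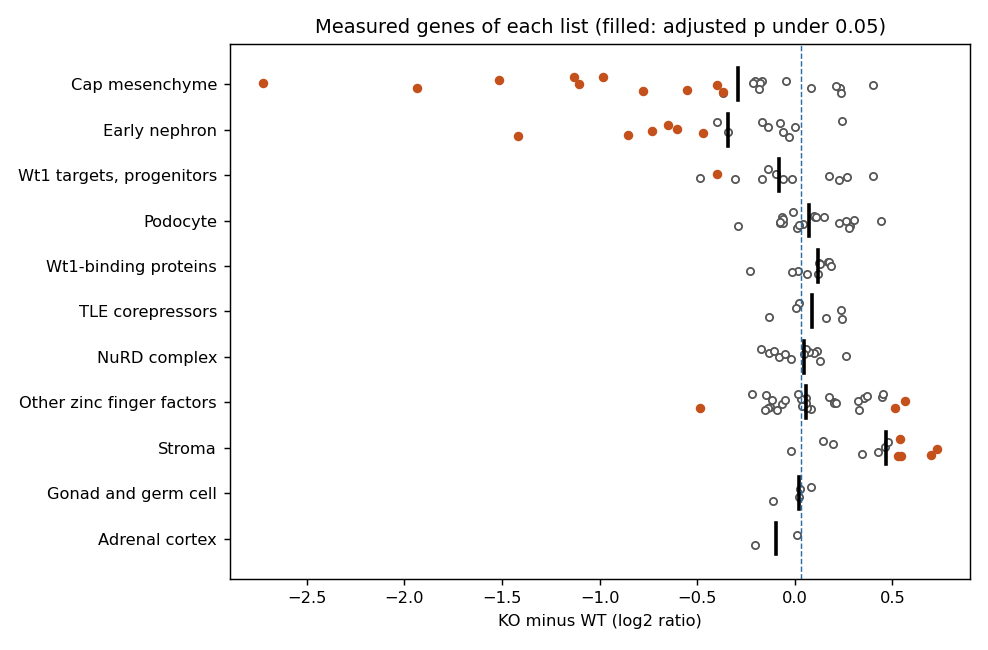
Difference KO minus WT in log2 ratio (horizontal axis) of each measured gene of 11 lists, with genes called at an adjusted p under 0.05 filled, the list median as a black bar and the median of all genes tested (0.03) as a dashed line. The cap mesenchyme and early nephron lists have medians of -0.29 and -0.34 and the stromal list 0.47. The medians of the podocyte, Wt1-binding, TLE and NuRD lists lie between 0.05 and 0.12, with single genes on both sides of 0 and no call. All lists were chosen with earlier results of these data known.

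The members were compared with each other and with all other genes by the Pearson correlation of log2 ratios over the 8 arrays. This is a description, since all arrays share the reference RNA and the slide. The correlation includes the shift between the groups, so genes picked as most like a member tend to share its difference. Their differences and calls are therefore no independent result. Osr2 and Wt1 followed each other (r = 0.949, and 0.639 with the group means removed). Osr1 and Osr2 did not (r = 0.148, and -0.0323 with group means removed). Among 13958 other genes, those most like Osr2 were Hey1, a Notch target gene (r = 0.973), the ETS factor gene Etv1 (0.973) and Gm266 (0.972). These differed by -0.37, -0.32 and -0.48, and only Gm266 was called in the fit of all arrays (adjusted p = 0.0192). Its call was lost without WT2, WT4, KO2 or KO4 (adjusted p from 0.0526 to 0.0749). Without WT1 and KO1 together, Hey1 and Etv1 were called as well (-0.48 and -0.40, adjusted p = 0.0325 and 0.0461).

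For Wt1 the most alike were the beta-defensin gene Defb25 (r = 0.971), the distal nephron factor gene Tfap2b (0.955) and the DNA repair gene Nthl1 (0.952). Defb25 fell by 0.61 ± 0.10 (adjusted p = 0.0124; 0.0554 without KO4), while Tfap2b was at -0.25 and Nthl1 at -0.18, neither called. With group means removed the correlations were 0.804, 0.957 and 0.78. The genes most like Osr1 were Zfp128, Ttbk2 and Smug1 (r from 0.949 to 0.96), those most like Sall1 were 1110038F14Rik, Rbm8a and Ino80c (0.945 to 0.971), and those most like Sall4 were Gnaq, Bcl7b and Gm10451 (0.924 to 0.979). None of these 9 genes was called, and their differences were -0.10 to -0.01, but they were picked for likeness to members that were not called.

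**Figure D5:**
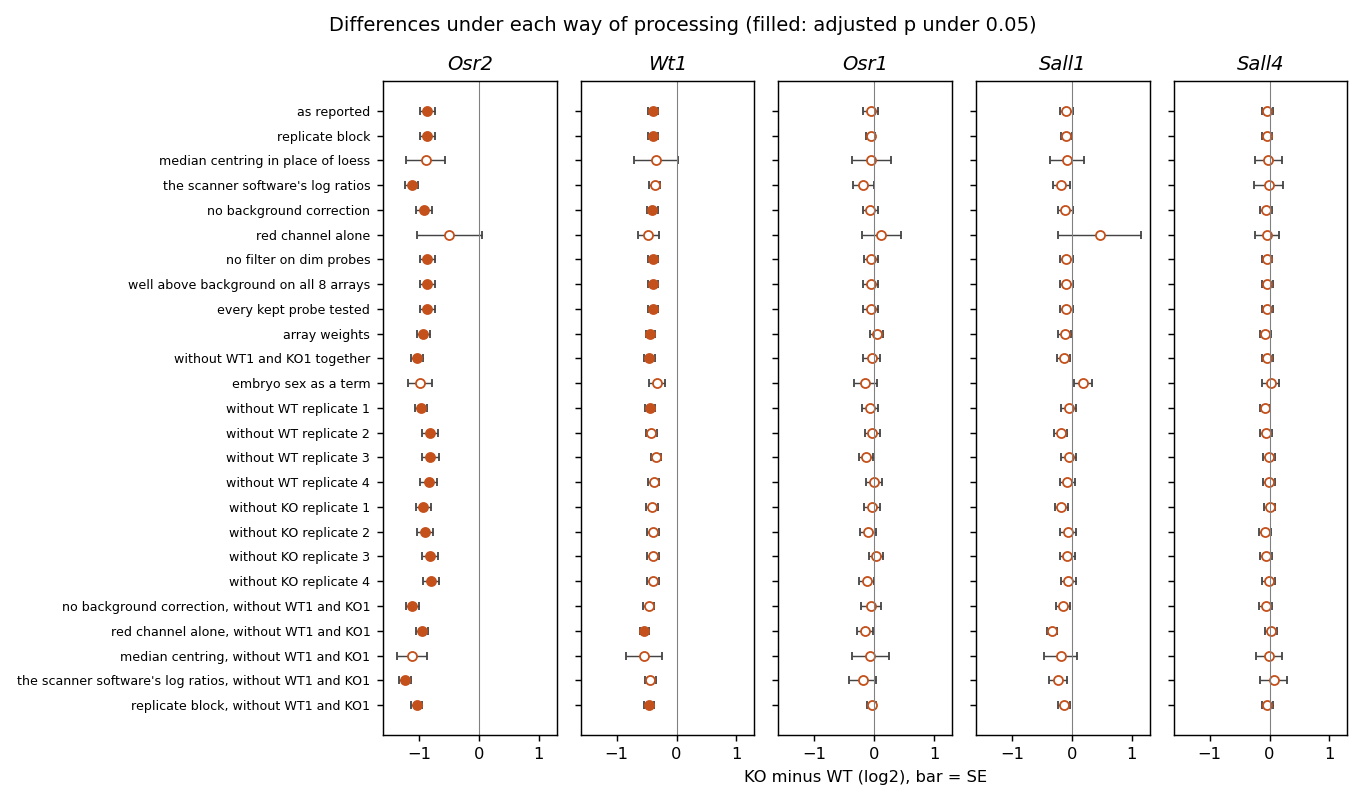
Difference KO minus WT on the log2 scale (horizontal axis, bar = SE) of the 5 tested genes under each way of processing (rows), filled where the adjusted p is under 0.05. Osr2 and Wt1 stay below 0 in all rows, between -1.23 and -0.49 and between -0.55 and -0.32, and Osr2 is filled in more rows than Wt1.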

How the data were processed

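Spots of the 8 two-colour arrays had been quantified by the submitters in Agilent Feature Extraction (version 10.7.3.1 in their processing notes). The deposited intensity columns hold median red and green spot signals and local backgrounds, not normalized. The deposited log10 ratios, per the file headers, had the background subtracted and the dyes balanced before deposit, and the series' value table holds the same ratios, with a median of 0 on each array. Flags of 0 or 1 mark spots above background or outlying.

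In R 4.3.3 with limma 3.58.1, the signals were background-corrected (normexp, offset 50) and loess-normalized within arrays. Control spots and outlier readings (0.372%) were left out, and no spot was saturated. Probes were named by accession through RefSeq names of GRCm38.p6 (27509 of 55681 probes), whose coordinates were not used because the files name another build. A probe was kept if well above background in red on at least 4 arrays, and the brightest kept probe stood for its gene. KO minus WT was tested with lmFit and eBayes, with Benjamini-Hochberg adjustment over 13981 genes and a threshold of 0.05, after a check on simulated data. Normalized red signals for sums came from loess with Aquantile.

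Same-numbered arrays were treated as pairs in the replicate block and the within-pair tests. Their deviations from the group means correlated at r of 0.138, 0.373, 0.257 and 0.304, all over 0.1. Arrays of different number ran from -0.56 to 0.369, with WT4 and KO1 at 0.369 and WT2 and KO3 at 0.309. These values do not establish a pairing. The number is also the slide column, and the labels do not say that it matches a WT to a KO embryo. The members and lists were chosen with earlier results of these data known. Named were all members and their probes, and up to 4 called genes per list (or 2 as values). Also named were the 3 genes most like each member, Dot1l, Ddx3y and Xist. Six2, Kif26b, the uncalled early nephron genes, Bmper, Lsp1, Plxdc2, Fgf20, Nphs1, Sall2 and dim markers were added after their values were seen. These additions are not among the 43 other named genes whose signs were compared under the alternatives.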

Additional observations from a re-analysis of the deposited data

Results flagged for a closer look

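A single array stood apart from the other 3 of its group, by a Dixon ratio above its critical value for 4 samples, in 7 of 98 groups examined over 49 genes, and chance flags about 1 in 20 groups. For Sall1 this was WT2 at -0.61, with the other WT arrays at -0.28 to -0.22, and also KO1 at -0.18, with the other KO arrays at -0.53 to -0.48. Among the other genes, WT1 was low for Plagl1 (-0.20) and for Etv1 (-0.27), WT4 for Tle3 (-0.10) and KO1 for Tle6 (0.24). WT3 was high for Nthl1 (0.26).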

How the results depend on the processing

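Osr2 and Wt1 were lower in KO under all 24 alternatives, 5 of them chosen after seeing the data because WT1 and KO1 had a raised background. Osr2 was called in 20 of these and Wt1 in 10. The alternatives are not all separate checks of direction. The replicate block, both changes of the probe filter and the test of every kept probe repeat the main differences exactly and alter only SE and p. Likewise, the block without WT1 and KO1 repeats the differences of the fit without those arrays. With median centring in place of loess Osr2 was at -0.89 and Wt1 at -0.35, with 0 genes called by limma (178 at an unadjusted p under 0.05), and without WT1 and KO1 at -1.11 and -0.55 with 10 genes. With the red channel alone, which moved the median of all genes to 0.22, Osr2 was at -0.49, Wt1 at -0.47, Osr1 at 0.11 and Sall1 at 0.47, with 1 gene called, and 13 of 43 other named genes turned sign, among them Itga8, Defb25, Hey1, Etv1, Robo2, Tfap2b and Rbbp7, as did the median of the Wt1 targets (0.47). Without WT1 and KO1 it gave 145 genes, and Sall4 at 0.017. With sex as a term 12 genes were called (4 higher, 8 lower), with Osr2 at -0.98, Wt1 at -0.32, Sall1 at 0.19 and Sall4 at 0.017. The scanner software's ratios gave 123 genes (73 higher, 50 lower) and Wt1 at -0.37; without WT1 and KO1 they gave 65, Wt1 at -0.44 and Sall4 at 0.067. Without background correction and those arrays Wt1 was at -0.47 (adjusted p = 0.0531). Array weights gave 453 genes and Osr1 at 0.039. The cause of these changes was not tested.

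The replicate block gave 556 genes (520 without WT1 and KO1) in place of 301; beside the stromal and zinc finger counts given above it moved the cap mesenchyme count from 10 to 11 and no call of the members. Without 1 array, the count was 83 to 345, Osr1 was at -0.14 to 0.03 (0.029 without KO3), Osr2 at -0.97 to -0.80, Wt1 at -0.44 to -0.34, Sall1 at -0.19 to -0.06 and Sall4 at -0.08 to 0.00. The count was 187 without WT1, 150 without WT2, 129 without WT4, 141 without KO2, 198 without KO3 and 83 without KO4. Signals near the negative controls limit what can be said of Sall3 and of 2 of the 3 Sall4 probes, which had no main value to vary.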
